A study of Mus musculus with 23 samples.

Results

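The comparison described here is testis tissue after 4 days of organ culture against the tissue the cultures started from. Testes came from CD-1 mice, an outbred strain. They were taken at 6.5 days postpartum (dpp), when the tubules hold Sertoli cells and spermatogonia. Explants were cultured in α-MEM with knockout serum replacement, gentamicin and retinol, and the central necrotic area was removed before RNA extraction. Of 23 sample columns (22 distinct libraries), 7 entered the comparison, namely 3 libraries of cultured fresh tissue at day 4 (D4) and 4 libraries of uncultured 6.5 dpp tissue. The latter were fresh replicate 2 and 3 replicates frozen by controlled slow freezing (CSF) and thawed. The 6.5 dpp fresh replicate 3 held the same counts as fresh replicate 2 and was not counted again, and fresh replicate 1 was left out by the rule because its profile resembled cultured tissue. The series' description of its design counts 1 CSF sample of this age fewer than the labels do and does not say which, and all 3 labelled ones were used. Tissue of 10.5 dpp (n = 3), the age that day 4 of culture corresponds to, was fitted together with both groups so that its values can stand beside those of D4. Culture and 4 days of age cannot be told apart in D4 against 6.5 dpp alone. Freezing differs as well, since 3 of the 4 libraries of 6.5 dpp were frozen and thawed while D4 and 10.5 dpp tissue was never frozen. Of 27466 genes in the table, 16631 were tested.

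In the first days of the first spermatogenic wave, spermatogonia divide by mitosis and the most advanced of them enter meiosis, supported by Sertoli cells inside the tubule. Leydig cells between the tubules make androgens, and resident macrophages and blood vessels lie beside them. An explant has no blood flow, so oxygen reaches its cells by diffusion, and cutting tissue is known to start an inflammatory response.

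Total counts were 28351546 to 48084120 per library at 6.5 dpp, 35959200 to 54986423 at 10.5 dpp and 41704439 to 69029328 at D4. The library CSF 3 stood apart. It had the lowest total, and ribosomal protein genes summed to 29360 CPM (counts scaled to library size) in it against 9070 to 12824 in the other 6.5 dpp libraries. Counts of the members of gene lists at D4 are therefore also given without it where they differ. The study calls the replicates biological and pooled explants within each cultured one, but the labels do not say whether replicates came from separate animals, so p-values measure the spread between libraries. In bulk tissue, fewer cells of a type and less RNA per cell cannot be told apart.

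**Figure D1:**
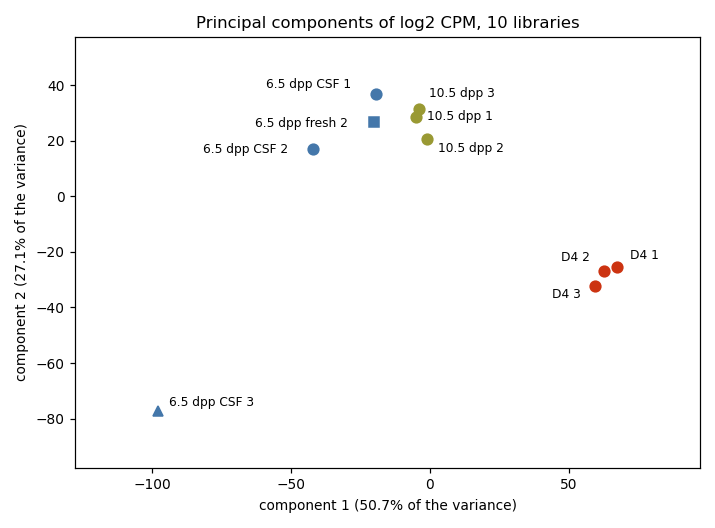
Principal components of log2 CPM in the 10 libraries of the fit, 1 point per library; the axes give the share of the variance (50.7% and 27.1%). The 3 D4 libraries lie together at 59.4 to 67.6 on component 1, and CSF 3 (triangle) lies at -98, away from the other 6.5 dpp libraries.

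More genes differed from 6.5 dpp at D4 than at 10.5 dpp. A DEG was a gene past 2 in log2 fold change, up or down, with an adjusted p of 0.001 or less in edgeR's quasi-likelihood test. By this rule 294 genes were higher at D4 than at 6.5 dpp (1.77% of those tested) and 125 were lower (0.752%). In all of them the 3 D4 libraries lay outside the range of the 4 libraries of 6.5 dpp. Such separation was common. Among all genes tested, 2967 had every D4 library above those of 6.5 dpp and 3354 had every one below. The DEG rule itself favours genes without overlap, so the separation is not further evidence for them. No gene passed these thresholds between 10.5 and 6.5 dpp by edgeR, although 3080 had an unadjusted p under 0.05, and DESeq2 called 23 higher and 21 lower. At an adjusted p under 0.05, 2439 genes rose at D4 (14.7%) and 2049 fell (12.3%). At the same threshold 148 genes rose (0.89%) and 101 fell (0.607%) from 6.5 to 10.5 dpp, and D4 exceeded 10.5 dpp in 1169 genes (7.03%) and lay under it in 819 (4.92%). The median log2 fold change of all genes tested was -0.03 for D4 and -0.02 for 10.5 dpp against 6.5 dpp. Both comparisons share the 6.5 dpp libraries.

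The number of DEGs depended on single libraries. Without CSF 3 there were 389 higher and 203 lower DEGs, and at an adjusted p under 0.05 the counts became 3692 and 3690 for D4 and 783 and 741 for 10.5 dpp. Leaving out D4 replicate 1, 2 or 3 gave 185, 177 or 165 higher and 49, 52 or 50 lower DEGs. With fresh replicate 1 kept as another 6.5 dpp library, 0 genes were higher and 1 lower by edgeR, with 3781 genes at an unadjusted p under 0.05. Below, "rose" and "fell" mean an adjusted p under 0.05 in the edgeR fit.

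**Figure D2:**
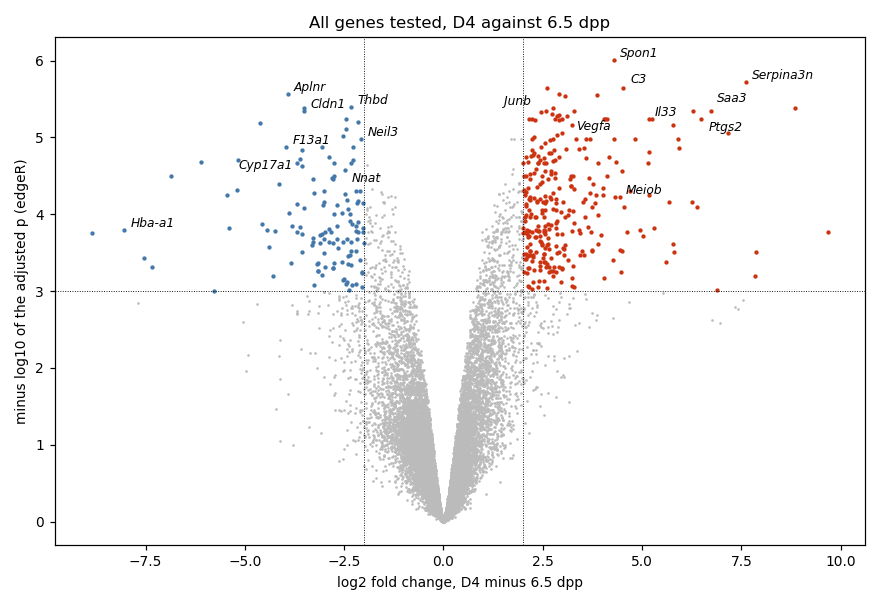
Log2 fold change of D4 minus 6.5 dpp (x axis) against minus log10 of the adjusted p of edgeR (y axis) for the 16631 genes tested; red and blue points are the 294 higher and 125 lower DEGs, and dotted lines mark the thresholds. Spon1 and Serpina3n have the smallest adjusted p among genes that rose, and Aplnr has the smallest among those that fell.

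Genes of the acute phase, the set of secreted proteins that tissues make in inflammation, rose together. Of 14 tested, 11 rose and 0 fell, with a median log2 fold change of 2.02, and the count was the same without CSF 3. Serpina3n, a secreted inhibitor of serine proteases, was at 0.981 CPM in fresh 2, at 0.478, 0.73 and 1.16 CPM in CSF 1 to 3, and at 127, 177 and 165 CPM at D4. The lowest D4 library was thus far above the highest of 6.5 dpp, while 10.5 dpp had 0.651, 1.11 and 0.837 CPM. The log2 fold change was 7.61 ± 0.33 (SE; adjusted p = 1.88e-06, edgeR). Serpina3 genes are near-identical copies, and reads may be split among them, so the value of a single copy is uncertain. Saa3, a serum amyloid A, went from 0.0626, 0.0624, 0.195 and 0.106 CPM to 8.27, 12.3 and 12.1 CPM (log2 fold change 6.74 ± 0.4). Lcn2, which binds bacterial siderophores, had a log2 fold change of 3.69, A2m, a broad protease inhibitor, 3.86, and Hp, which binds free haemoglobin, 3.28. The median of the 14 between 10.5 and 6.5 dpp was 0.32.

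Complement, the cascade of plasma proteins that tags and lyses cells, rose as a group with 13 higher and 1 lower of 19 tested (median log2 fold change 1.12; the same counts without CSF 3). C3, its central component, stood at 3.3 CPM in fresh 2 and 3.12, 1.95 and 3.28 CPM in CSF 1 to 3. At D4 it reached 59, 69.3 and 64.8 CPM, and 10.5 dpp stayed at 3.19, 3.11 and 3.55 CPM. The log2 fold change was 4.51 ± 0.21 (adjusted p = 2.25e-06, edgeR). C4b of the classical pathway had a log2 fold change of 4.16, and C6 and C7 of the lytic complex had 3.96 and 4.03.

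The sequences before the starts of C3 and Saa3 are shown because these genes are among the most changed of their groups. Each is the 250 bases before an annotated start (RefSeq, GRCm38.p6), 5′ to 3′ on the gene's strand. Capitals mark any match to TTGCNNAA, a C/EBP-type motif searched on both strands. The start used for Saa3 lies inside the annotated span of the gene (46711998 to 46719615).
C3 promoter, chr17:57228137-57228386, minus strand: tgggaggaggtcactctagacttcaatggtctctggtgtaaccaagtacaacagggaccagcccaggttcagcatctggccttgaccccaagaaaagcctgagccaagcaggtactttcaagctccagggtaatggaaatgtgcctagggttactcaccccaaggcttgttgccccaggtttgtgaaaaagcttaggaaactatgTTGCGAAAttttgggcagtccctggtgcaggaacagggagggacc
Saa3 promoter, chr7:46715677-46715926, minus strand: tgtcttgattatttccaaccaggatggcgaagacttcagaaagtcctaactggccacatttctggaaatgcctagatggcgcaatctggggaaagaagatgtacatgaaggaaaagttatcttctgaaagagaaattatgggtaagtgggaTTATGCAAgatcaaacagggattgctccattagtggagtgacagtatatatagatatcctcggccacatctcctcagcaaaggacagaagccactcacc
C3 held the motif at 45 to 38 bases before the start and Saa3 at 99 to 92. TTGCNNAA occurred in 9.56% of the 32851 windows of the table, in 4 of the 7 acute phase genes that rose and have an entry, and in 2 of 3 that did not rise. The match is a description of the letters, not evidence of binding.

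Cytokines and chemokines followed. Of 15 cytokine genes 8 rose and 0 fell (8 and 2 of 14 without CSF 3), and of 18 chemokine genes 10 rose and 3 fell (11 and 4 without it). Il33, an alarmin of the interleukin-1 family, was at 0.271, 0.187, 0.243 and 0.0705 CPM at 6.5 dpp and at 7.38, 7.91 and 5.71 CPM at D4, without overlap (log2 fold change 5.17 ± 0.32). Cxcl14 had a log2 fold change of 3.9 and Cxcl10, an interferon-induced chemokine, 3.69. Csf1, the growth factor of macrophages, rose by 1.34. Cxcl12, which holds spermatogonia and blood progenitors in their niches, moved the other way, from 144, 144, 207 and 239 CPM to 34.1, 30.5 and 34.7 CPM, a log2 fold change of -2.44. At 10.5 dpp it had 108, 96.6 and 91.3 CPM (adjusted p = 0.0629). Ccl24 was at most at the floor of 3 counts in each D4 library and at least 24.9-fold lower, or at least 15.8-fold without CSF 3.

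Signalling feedback genes accompanied them. Of 12 genes of the STAT3 and interleukin-6 family response 9 rose and 1 fell, and of 16 NF-kB targets and feedback genes 10 rose and 0 fell (10 and 1, and 13 and 0, without CSF 3). Osmr, a receptor of oncostatin M, went from 3.49, 4.37, 4.77 and 3.32 CPM to 31, 27.5 and 21.7 CPM (log2 fold change 2.8). Stat3 and its inhibitor Socs3 rose by 1.6 and 1.51. Junb, an immediate early transcription factor, rose by 2.45. Ptgs2, the inducible enzyme of prostaglandin synthesis, was at 0.0418, 0.0832, 0.0487 and 0 CPM at 6.5 dpp and at 3.65, 5.61 and 3.71 CPM at D4 (log2 fold change 6.49).

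**Figure D3:**
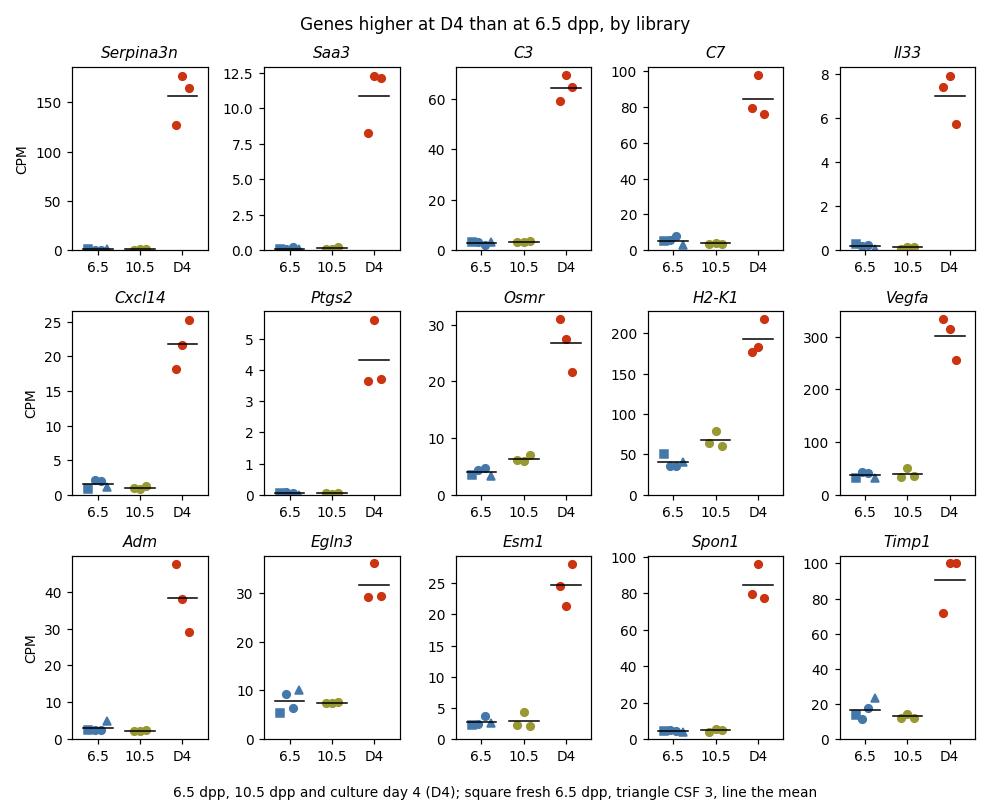
CPM (y axis, from 0) of 15 genes that rose, by library at 6.5 dpp, 10.5 dpp and D4; the square is fresh 2, the triangle CSF 3 and the line the mean. In all 15 panels the 3 D4 points lie above every 6.5 dpp point and above every 10.5 dpp point.

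MHC class I genes, which present peptides made inside the cell, rose in part. Of 10 tested 4 rose and 0 fell (6 without CSF 3). H2-K1, a class I heavy chain, was at 50.9, 36, 35.1 and 40.5 CPM at 6.5 dpp and at 177, 183 and 218 CPM at D4 (log2 fold change 2.29). At 10.5 dpp it had 64.4, 78.4 and 60.7 CPM, above all 6.5 dpp libraries but short of the threshold (adjusted p = 0.0874, edgeR). H2-D1 rose by 2.24 at D4 and by 0.97 at 10.5 dpp (adjusted p = 0.0165). The class I genes are near-identical copies, so the split of reads among them is uncertain. Of 7 MHC class II genes, which present ingested antigens, 0 rose and 1 fell (1 and 1 without CSF 3). Of 27 interferon-stimulated genes 8 rose and 1 fell (10 and 2 without it).

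Hypoxia targets, genes switched on when cells have little oxygen, rose in 17 of 21 tested and fell in 0 (19 and 1 without CSF 3), with a median log2 fold change of 1.02. From 6.5 to 10.5 dpp, 0 rose and 1 fell, with a median of -0.07. Vegfa, the main growth factor of blood vessels, was at 31.7, 42.1, 41.3 and 31.5 CPM at 6.5 dpp and at 333, 315 and 256 CPM at D4, while 10.5 dpp had 34.4, 50 and 34.7 CPM. Its log2 fold change was 3.1 ± 0.19 (adjusted p = 5.28e-06, edgeR). Adm, a vasodilator peptide, had a log2 fold change of 3.66, with CSF 3 at 5.01 CPM and the other 6.5 dpp libraries at 2.38 to 2.56. Egln3, which marks hypoxia factors for destruction, rose by 2.06, Loxl2, which cross-links collagen, by 2.34, and Pdk1, which holds back pyruvate oxidation, by 1.26. Ddit4 did not pass, with 230, 200, 167 and 168 CPM at 6.5 dpp and 174, 163 and 194 at D4. Bnip3 did not pass either, with CSF 3 at 44.7 CPM.

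Glycolysis genes followed in part, with 7 of 18 rising and 0 falling (13 and 1 without CSF 3). Pfkl, the liver form of phosphofructokinase, went from 120, 120, 88.9 and 59.1 CPM to 332, 389 and 446 CPM. Eno2 rose by 2.72 and the glucose transporter Slc2a1 by 1.35.

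The promoters of Adm and Egln3 are shown for the hypoxia targets, with ACGTG or GCGTG, the core of the response element, in capitals wherever it occurs on either strand. Coordinates and strand are as for C3 above.
Adm promoter, chr7:110627407-110627656, plus strand: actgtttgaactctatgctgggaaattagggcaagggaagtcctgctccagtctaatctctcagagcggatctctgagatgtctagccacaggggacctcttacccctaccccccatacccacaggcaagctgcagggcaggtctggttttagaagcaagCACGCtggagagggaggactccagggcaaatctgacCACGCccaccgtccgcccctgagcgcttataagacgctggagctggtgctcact
Egln3 promoter, chr12:54203875-54204124, minus strand: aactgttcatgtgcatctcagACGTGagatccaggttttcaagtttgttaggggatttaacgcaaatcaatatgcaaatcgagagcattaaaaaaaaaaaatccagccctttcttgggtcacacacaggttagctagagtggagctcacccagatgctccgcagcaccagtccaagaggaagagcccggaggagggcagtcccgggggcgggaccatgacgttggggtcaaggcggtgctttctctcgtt
Adm held 2 such cores, at 90 to 86 and 54 to 50 bases before the start, and Egln3 held 1, at 229 to 225. The core is short and occurred in 38.6% of all windows. It was present in 13 of the 14 hypoxia targets that rose and have an entry, and also in 4 of 4 that did not rise.

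Blood and vessel genes moved in both directions. Of 7 genes of haemoglobin and red cells 5 fell and 1 rose, and their summed level was 40.7 to 141 CPM at 6.5 dpp and 17.8 to 18.9 CPM at D4. Hba-a1, an alpha globin, was at 30.1, 19.5, 20.1 and 64.4 CPM at 6.5 dpp and at 0.0464, 0.384 and 0 CPM at D4. Hbb-bt, a beta globin, lay at or under 3 counts in every D4 library and was at least 412-fold lower, or at least 199.9-fold without CSF 3. Globin copies are near-identical, so single values are uncertain. Alas2, the haem synthesis enzyme of red cells, rose by 1.25. At 16.2, 16.3 and 17.5 CPM it made up most of the summed level at D4.

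Endothelial genes, which line vessels, rose in 12 and fell in 5 of 24 (13 and 7 without CSF 3). Esm1, made by sprouting tip cells, went from 2.25, 2.41, 3.75 and 2.57 CPM to 24.5, 21.3 and 28.1 CPM (log2 fold change 3.22). Angpt2, which loosens vessels, rose by 2.66, Nos3, the endothelial nitric oxide synthase, by 2.1 and Pecam1, a junction protein of all endothelium, by 0.97. Aplnr, the apelin receptor, was at 9.08, 8.32, 10.2 and 7.27 CPM and fell to 0.464, 0.575 and 0.608 CPM (log2 fold change -3.92), with 10.4, 12.5 and 9.6 CPM at 10.5 dpp. Thbd, which inhibits clotting on the vessel wall, fell by 2.33 on the log2 scale and Eng by 1.21. Of the 5 defining endothelial markers, which include Pecam1, 3 rose and 1 fell, with the same counts without CSF 3. Cdh5, the remaining marker, did not pass. It had 107, 126, 125 and 63.8 CPM at 6.5 dpp and 81.7, 99.2 and 105 CPM at D4, which overlap.

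Macrophage genes were lower in most cases. Of 21 tested 11 fell and 2 rose (12 and 3 without CSF 3). The 21 summed to 124 to 227 CPM at 6.5 dpp and to 97.3 to 140 CPM at D4, which overlap. All 5 defining macrophage markers fell, and they summed to 59.5 to 95.7 CPM at 6.5 dpp and to 30.6 to 35 CPM at D4, without overlap. Cx3cr1, the fractalkine receptor, was at 10.4, 7.8, 11 and 8.36 CPM and fell to 0.882, 0.671 and 0.84 CPM, while 10.5 dpp had 11.7, 12.5 and 13.1 CPM. F13a1, the factor XIII chain made by resident macrophages, fell by 3.96 on the log2 scale at D4 and rose by 1.47 at 10.5 dpp (adjusted p = 0.022, edgeR). Csf1r, the receptor of Csf1, fell by 1.72, and C1qc, a subunit of complement C1q, by 2.14. Cd68 fell by 0.68, a call lost without D4 replicate 1 (adjusted p = 0.0538). Gpnmb, a glycoprotein of lipid-laden macrophages, rose by 3.57, and Cd14, the lipopolysaccharide co-receptor, by 2.13.

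**Figure D4:**
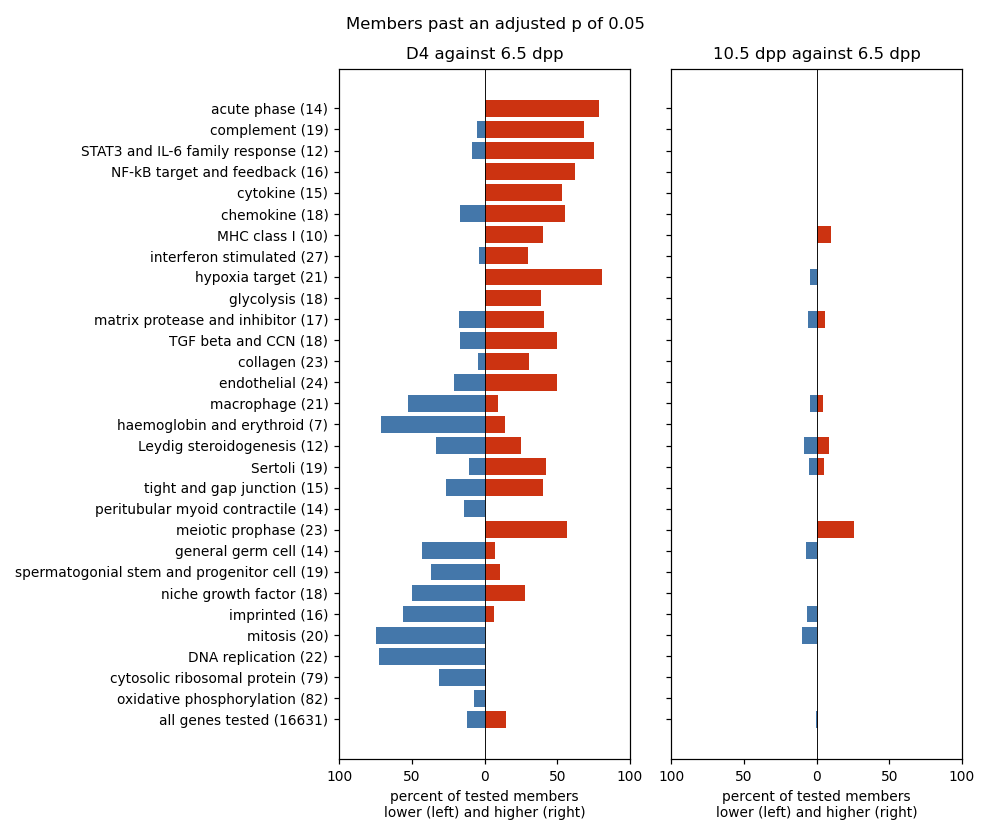
Percent of tested members of 29 gene lists and of all genes tested that passed an adjusted p of 0.05, higher to the right and lower to the left, for D4 (left panel) and 10.5 dpp (right panel) against the same 6.5 dpp libraries; numbers of tested members are in parentheses. Hypoxia targets (17 of 21) and acute phase genes (11 of 14) have the longest bars to the right at D4, and mitosis (15 of 20) and DNA replication (16 of 22) have the longest to the left.

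Genes of matrix turnover moved in both directions. Of 17 matrix proteases and inhibitors 7 rose and 3 fell (8 and 6 without CSF 3). Spon1, a secreted matrix protein, had the smallest adjusted p of all genes. It was at 4.57, 4.82, 4.23 and 4.09 CPM at 6.5 dpp, at 3.77, 5.28 and 5.18 CPM at 10.5 dpp and at 79.8, 96 and 77.4 CPM at D4 (log2 fold change 4.3 ± 0.17, adjusted p = 9.9e-07, edgeR). Timp1, an inhibitor of matrix metalloproteases, rose by 2.48. Mmp12, the macrophage elastase, was at most at the floor in every 6.5 dpp library and at 5.55, 9.02 and 4.98 CPM at D4, at least 85.8-fold higher. Mmp2 fell by 1.14 at D4 and by 1.37 at 10.5 dpp. Plau, the urokinase plasminogen activator, and its receptor Plaur rose by 2.77 and 3.71. Ccn5 rose by 5.9 and Ccn3 of the same family fell by 2.83. Of 23 collagen genes 7 rose and 1 fell (10 and 5 without CSF 3). Col3a1 was at 1853, 1666, 2141 and 827 CPM at 6.5 dpp and at 3140, 3991 and 3621 CPM at D4.

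Steroidogenesis changed enzyme by enzyme. Of 12 Leydig genes 4 fell and 3 rose (4 and 4 without CSF 3). Cyp17a1, which makes androgens from progesterone, was at 127, 157, 160 and 241 CPM at 6.5 dpp and at 10.8, 14.3 and 18 CPM at D4, and 10.5 dpp had 334, 376 and 340 CPM. The log2 fold change of D4 was -3.55 ± 0.29 (adjusted p = 2.35e-05, edgeR). Hsd17b3, the last step to testosterone, fell by 3.03, and by 1.46 at 10.5 dpp. Star, which brings cholesterol into mitochondria, fell by 1.28, and Insl3, the Leydig hormone of testis descent, by 2.62. Hsd3b6, a hydroxysteroid dehydrogenase of adult Leydig cells, rose from 0.188, 0.125, 0.0973 and 0.141 CPM to 3.41, 5.87 and 5.36 CPM, and had 0.606, 1.47 and 0.673 CPM at 10.5 dpp. Cyp11a1 and Hsd3b1 did not pass, and their libraries overlapped.

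Sertoli genes rose in 8 and fell in 2 of 19 (10 and 4 without CSF 3), and the defining markers, which include Sox9 and Amh, rose in 1 and fell in 1 of 7 (1 and 3 without CSF 3). Clu, a secreted chaperone, was at 2820, 1977, 1763 and 1875 CPM at 6.5 dpp and at 6256, 6103 and 6801 CPM at D4. Trf, transferrin, rose by 2.2 and the transcription factor Gata1 by 1.74. Amh, the anti-Müllerian hormone of immature Sertoli cells, was at 652, 430, 615 and 473 CPM and fell to 211, 235 and 237 CPM, with 348, 371 and 388 CPM at 10.5 dpp. Hsd17b1 fell by 3.5 at D4 and by 2.43 at 10.5 dpp. Cldn11, the claudin of the blood-testis barrier, rose by 1.76. Sox9 had 199, 191, 171 and 113 CPM at 6.5 dpp and 227, 177 and 199 CPM at D4, which overlap.

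Meiotic prophase genes rose in 13 of 23 and fell in 0, and 20 rose without CSF 3. At 10.5 dpp 6 of these 23 rose, or 18 without CSF 3, with a median log2 fold change of 0.73 against 1.11 at D4. Meiob, which holds single-stranded DNA in recombination, was at 0.856, 0.936, 0.997 and 2.72 CPM at 6.5 dpp, at 5.46, 7.34 and 4.36 CPM at 10.5 dpp and at 31.6, 26.2 and 28.1 CPM at D4. The 3 groups did not overlap, and D4 exceeded 10.5 dpp by a log2 fold change of 2.44 (adjusted p = 0.0047, edgeR). Prdm9, which places recombination sites, was higher at D4 by 2.67 and at 10.5 dpp by 1.86. Spo11, which cuts DNA to start recombination, was higher at D4 by 2.43. Bhmg1, a transcription factor of meiotic entry also known as Meiosin, rose by 2.75 at D4 and 2.3 at 10.5 dpp, and D4 and 10.5 dpp did not differ past the threshold (adjusted p = 0.207). Stra8, induced by retinoic acid, had 107, 123, 107 and 178 CPM at 6.5 dpp and 156, 168 and 221 CPM at D4 and did not pass. CSF 3, at 178 CPM, was the only 6.5 dpp library to overlap D4. Of the 5 defining germ cell markers, which include Stra8, 0 rose and 1 fell (1 and 2 without CSF 3).

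**Figure D5:**
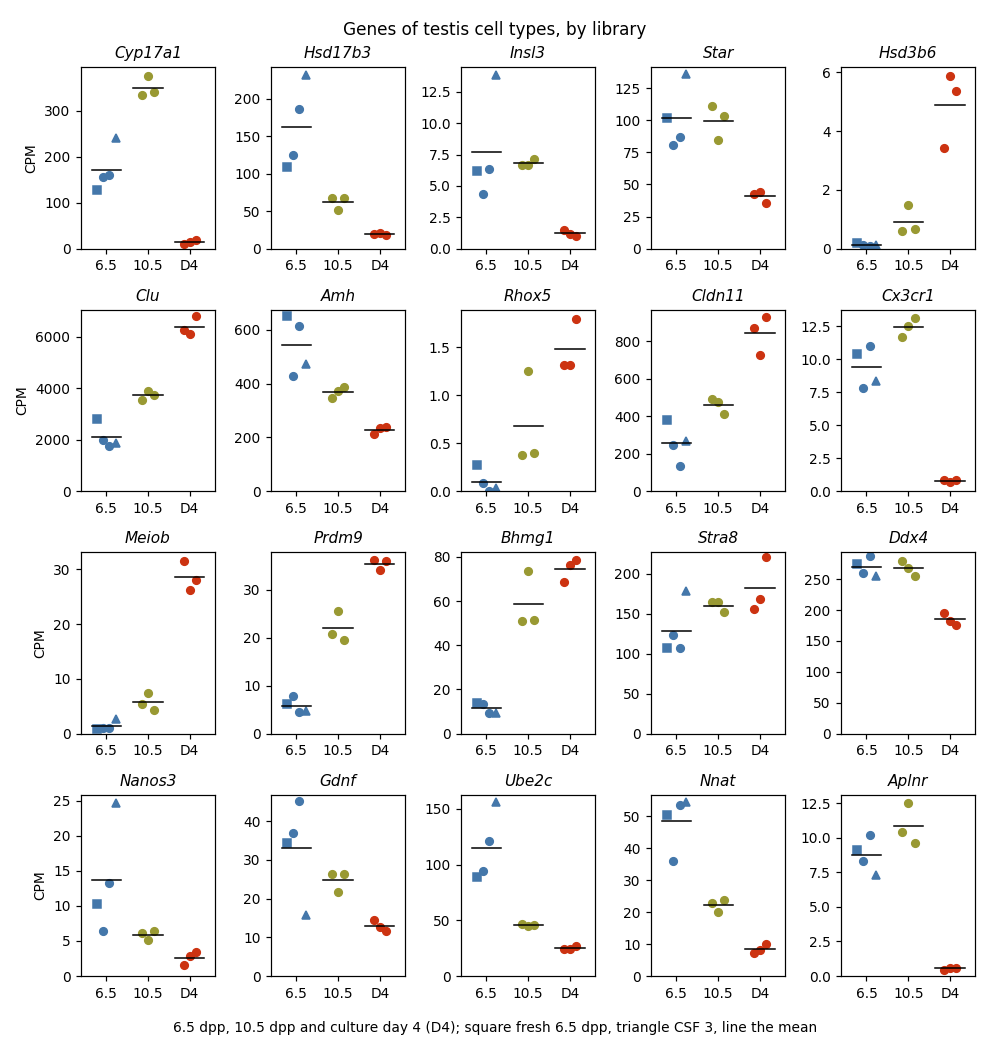
CPM (y axis, from 0) of 20 genes of testis cell types, by library at 6.5 dpp, 10.5 dpp and D4; the square is fresh 2, the triangle CSF 3 and the line the mean. Cyp17a1 lies at 10.8 to 18 CPM at D4 and at 334 to 376 CPM at 10.5 dpp, while Meiob is at 26.2 to 31.6 CPM at D4 and at 4.36 to 7.34 CPM at 10.5 dpp.

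Genes of stem and progenitor spermatogonia that passed were mostly lower, whereas those of differentiating spermatogonia and meiotic entry went both ways. Of 10 genes in the latter list 2 rose and 2 fell (4 and 4 without CSF 3). Of 19 stem and progenitor genes 7 fell and 2 rose (10 and 2 without CSF 3), and of 14 general germ cell genes 6 fell and 1 rose (11 and 1 without CSF 3). Nanos3, an RNA-binding protein of undifferentiated spermatogonia, had 10.3, 6.38, 13.2 and 24.7 CPM at 6.5 dpp and 1.6, 2.85 and 3.45 CPM at D4. Neurog3, of progenitors, and Sox3 fell by 2.04 and 1.42. Dppa3 fell by 3.17, with CSF 1 at 0.541 CPM and the other 6.5 dpp libraries at 1.39 to 1.44. Ddx4, a marker of all germ cells, fell by 0.49, a call that was lost without D4 replicate 2 (adjusted p = 0.0621, edgeR) or 3 (0.0553). The call was also lost in the fit of the 7 libraries alone (0.0604) and of all libraries in 7 groups (0.114).

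Genes of cell division were lower. Of 20 mitosis genes 15 fell and 0 rose, and of 22 DNA replication genes 16 fell and 0 rose (19 and 1, and 19 and 0, without CSF 3). The median log2 fold changes were -1.23 and -0.87 against the 6.5 dpp group. Against fresh 2 alone, 1 control library, they were -0.88 and -0.63. Ube2c, which marks mitotic cyclins for destruction, was at 88.5, 94.6, 121 and 156 CPM at 6.5 dpp, at 46.4, 45 and 45.6 CPM at 10.5 dpp and at 24.6, 24 and 26.9 CPM at D4. Plk1 and Aurkb, mitotic kinases, fell by 1.26 and 1.29, and Mcm7 of the replicative helicase by 1.04. Neil3, a DNA repair enzyme of dividing cells, fell by 2.07. Mki67 did not pass, with CSF 3 at 72.6 CPM and the other 6.5 dpp libraries at 261 to 317.

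Growth factors of the stem cell niche moved in both directions. Of 18 niche growth factor genes 9 fell and 5 rose. Gdnf, which keeps spermatogonial stem cells, was at 34.3, 37.1, 45.2 and 15.9 CPM at 6.5 dpp and at 14.5, 12.6 and 11.7 CPM at D4. Tgfa fell by 2.3 and Wnt4 rose by 2.29. Against fresh 2 alone, 1 control library, the log2 fold changes were -1.31 for Gdnf, -2.08 for Tgfa and 2.34 for Wnt4. Of 16 imprinted genes 9 fell and 1 rose (12 and 1 without CSF 3). Nnat, a membrane proteolipid, had 50.3, 35.9, 53.4 and 54.3 CPM at 6.5 dpp, 22.9, 20.1 and 23.8 CPM at 10.5 dpp and 7.2, 8.27 and 10 CPM at D4. Dlk1, a Notch-like membrane ligand, and Cdkn1c, a cell cycle inhibitor, fell by 1.7 and 1.4. Igfbp3, which binds insulin-like growth factors, was at 51.2, 48.7, 72.4 and 91 CPM at 6.5 dpp and at 411, 483 and 452 CPM at D4.

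Further genes stood out by the smallest p or the largest fold. Vldlr, a lipoprotein receptor, rose from 12.1, 15.5, 16.3 and 12.7 CPM to 102, 113 and 93.3 CPM. Adam23, a cell surface protein, and Dram1, a lysosomal protein of autophagy, rose by 2.61 and 2.75, and Cd38, an NAD hydrolase, by 3.28. Kctd19, a germ cell gene, rose from 0.522, 0.229, 0.292 and 0.635 CPM to 15.7, 14.4 and 15.5 CPM. Among genes that fell, Cldn1, a tight junction claudin, went from 45.2, 41.3, 60.3 and 50.1 CPM to 3.69, 4.68 and 4.16 CPM. Otof fell by 4.13, Socs2, an inhibitor of growth hormone signalling, by 2.32 and Map2, a neuronal microtubule protein, by 2.28.

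Ribosomal protein genes fell in 25 and rose in 1 of 79, with a median log2 fold change of -0.92 at D4 and -0.68 at 10.5 dpp. Without CSF 3 the median was -0.50 and 43 fell. Ribosomal protein genes summed to 9748 CPM in fresh 2, the only unfrozen 6.5 dpp library used, and to 5649, 7105 and 7935 CPM at D4. Of 82 oxidative phosphorylation genes 6 fell and 1 rose, smaller shares than among all genes tested (12.3% fell and 14.7% rose). Their median log2 fold change was nevertheless -0.84 at D4 and -0.55 at 10.5 dpp. Without CSF 3, 30 of these 82 fell and 2 rose, while 3690 of all genes fell and 3692 rose. The share that fell was then larger than among all genes, so the comparison with all genes depended on CSF 3.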

How the data were processed

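RNA-seq libraries were made from poly(A) RNA and read as 50-base single-end reads. Per the submitters' processing notes, reads were converted with bcl2fastq 2.17.1.14, aligned with STAR 2.7.3a to GRCm38 (mm10) and counted with HTSeq 0.12.4; DESeq2 is named with no version. The deposited table holds raw read counts per gene, as the authors made them, with no normalization. Here the counts were fitted in R 4.3.3 with edgeR 4.0.16: a filter on low counts (filterByExpr), TMM factors and the quasi-likelihood F test with Benjamini-Hochberg adjustment, in 1 fit of 6.5 dpp (n = 4), 10.5 dpp (n = 3) and D4 (n = 3). DESeq2 1.42.0 was an alternative. CPM values are scaled to library size without TMM factors, and the floor is 3 counts per library. TMM factors entered the fits, the principal components and the values of 6.5 dpp fresh replicate 1. Comparison, libraries and gene lists were chosen with earlier results of these data known, so no list is independent evidence. Named genes are members of the 60 lists, genes that the study names, or the 15 smallest p and 10 largest folds in each direction. Alternatives were other normalizations, filters, tools, library sets and thresholds; counts of list members and folds against the floor without CSF 3 were added after the data were seen. The tests were also tried on simulated counts, with the same dispersion for every gene and without a library that stands apart as CSF 3 does. The table held 23 sample columns, of which 2 were identical. Figures were drawn with matplotlib 3.10.9. Single values of some list members are not reported here.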

Additional observations from a re-analysis of the deposited data

Results flagged for a closer look

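In 5 of the 129 genes looked at, 1 of the 4 libraries of 6.5 dpp lay far from the other 3 by Dixon's test. Chance flags about 1 in 20 groups, so 5 of 129 is no more than chance gives. C3 was at 1.95 CPM in CSF 2 against 3.12 to 3.3 CPM in the others. In CSF 3, Adm was at 5.01 CPM (others 2.38 to 2.56), Hbb-bt at 64.8 CPM (others 11.4 to 12.8) and Meiob at 2.72 CPM (others 0.856 to 0.997). Dppa3 was at 0.541 CPM in CSF 1 (others 1.39 to 1.44). Over all genes tested, 11.4% had such a gap, and CSF 3 was the far library in 1642 of these 1898 genes.

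The 6.5 dpp fresh replicate 1, which the comparison does not use, lay above every other 6.5 dpp library in 75 of the 129 genes looked at and below them in 46. Its rank correlation was 0.935 to 0.936 with the D4 libraries and 0.928 to 0.932 with those of 10.5 dpp. With fresh 2 it was 0.928 and with the CSF libraries 0.9 to 0.923. Serpina3n was at 59.2 CPM in fresh replicate 1, C3 at 65.4 CPM and Spo11 at 106 CPM. Spo11 was thus also far above D4, which had 10.5, 9.35 and 11 CPM. These 3 examples were chosen after their values were seen. CPM of fresh replicate 1 carry TMM factors and those of the other libraries do not, so positions close to the others' range are uncertain.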

How the results depend on the processing

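For the 129 genes compared, 2578 values were recomputed under alternatives, of which 2470 kept their direction and side of the threshold. Genes described above as not passing, such as Stra8, Sox9, Cdh5 and Mki67, were not among the 129. The counts therefore cover genes that had been called, and whether other genes gain a call was not looked at here. With fresh replicate 1 kept, 41 of the 129 genes kept their call and 86 lost it, while the other alternatives together kept 2429 and lost 20. With it, Spo11 had a log2 fold change of -1.20 and Kctd19 of -2.72, the only reversals. That setting gave 0 higher and 1 lower DEG and 221 higher and 207 lower genes at an adjusted p under 0.05, 0 and 0 for 10.5 against 6.5 dpp, and 85 and 73 for D4 against 10.5 dpp. Its cause was not tested. The fit of the 7 libraries alone gave 163 and 60 DEGs and 1164 lower genes. The fresh library alone gave 14 and 23 DEGs and 579 and 444 genes, with 1 control library. DESeq2 gave 247 lower DEGs, 547 and 591 genes for 10.5 against 6.5 dpp, and 1309 lower genes for D4 against 10.5 dpp. A log2 fold change of 1.5 gave 190 lower DEGs, and of 1 with an adjusted p of 0.05 gave 1372 and 1084.

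Leaving out 1 library at a time gave 165 to 389 higher and 49 to 203 lower DEGs. The genes at an adjusted p under 0.05 numbered 1624 to 3692 higher and 1089 to 3690 lower. For 10.5 against 6.5 dpp they numbered 4 to 783 and 0 to 741, and for D4 against 10.5 dpp 538 to 2807 and 379 to 2604. The highest of each came without CSF 3. The 7 groups of all libraries, other filters and other scalings kept each count within 1.5 times.

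With the replicate number as a replicate block there were 242 higher and 98 lower DEGs, and 51 higher and 41 lower genes between 10.5 and 6.5 dpp. The labels do not say what a shared number means. The deviations of same-numbered D4 and CSF libraries correlated at 0.18, 0.12 and 0.24, and those of D4 replicate 2 and fresh replicate 2 at 0.02. As not every pair was over 0.1, the numbers were not taken to pair the samples.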
